A study of Mus musculus with 20 samples.

Results

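The 34 genes described here encode nuclear hormone receptors and were chosen by name from the 23413 genes counted in the cortex of APOE4 mice on a control or a ketogenic diet. They were taken by family: steroid hormone, estrogen-related, thyroid hormone, retinoid, peroxisome proliferator-activated (PPAR), liver X, vitamin D and orphan receptors. All 34 were found in the count tables, and 30 of them were among the 15660 genes with enough counts to be tested. The mice were of the strain B6(SJL)-Apoetm1.1(APOE*4)Adiuj/J, with the human APOE4 allele knocked in at the mouse Apoe locus, and both diet groups carried it. They were 22 months old, had been fed the control diet (CD, SD in the sample labels) or a ketogenic one (KD) for their last 12 months, starting at 10 months, and had been fasted before the brain was taken. There were 5 females on the CD, 4 on the KD, and 5 and 6 males on these diets, with 1 library of total RNA per mouse. The comparisons asked whether receptor mRNA differed between the diets in each sex, whether the diet effect differed between the sexes, and whether females differed from males.

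Nuclear receptors are transcription factors that bind DNA through a pair of zinc fingers and change shape when a small lipophilic ligand occupies their ligand-binding domain. Steroid receptors are held by chaperones until hormone arrives and then act mostly as homodimers, whereas thyroid, retinoic acid, PPAR and liver X receptors sit on DNA as heterodimers with a retinoid X receptor (RXR). Without ligand these heterodimers recruit corepressors such as Ncor1, and with ligand they recruit coactivators such as Ncoa1. In the cortex the glucocorticoid and mineralocorticoid receptors read corticosterone, the thyroid receptors read T3, and PPARs bind fatty acids. The KD held more fat than the CD, and the paper gives no measure of fatty acids in the brain. Orphan receptors of the NR2 and NR4 families act largely without a known hormone and are used to pattern regions and cell types of the forebrain.

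Depth was between 12207161 and 29109990 counts per library. By their numbers in the labels, the libraries form 2 series of 10, and every group has mice in both. Xist and Ddx3y matched the labelled sex, except that CD female E228 had 14.0 CPM (counts scaled to the library total) of the Y-linked Ddx3y, against at most 1.64 CPM in the other females. The cortical excitatory marker Slc17a7 was present in every library. A score of 20 striatal markers, the mean of their z-scored log2 CPM, was high in KD male E59 (1.94), KD females E207 (1.75), E61 (1.69) and E68 (1.46) and CD female E249 (0.67), and at most 0.37 in the other libraries. Of the 20 markers, Isl1 and Six3 were at 0 in some libraries and the other 18 in none, and their summed level was 284 to 1310 CPM in CD females, 415 to 3665 CPM in KD females, 321 to 782 CPM in CD males and 338 to 4510 CPM in KD males. Nothing in the labels ties these libraries together. Several results that move with them are given below with these libraries left out in turn or with the score as a covariate.

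Compared per kilobase of exon, which allows levels to be set against each other, the receptors spanned from near 0 to 47 CPM per kb. The glucocorticoid receptor Nr3c1 was the highest, with 47 ± 6.88 CPM per kb (SD, n = 20), and the thyroid receptor Thra followed at 40.3 ± 13.4. These neighbours overlapped within 1 SD, and both stood apart from Thrb, the second thyroid receptor, at 15.8 ± 3.67 CPM per kb. A group of similar members came next: the orphan receptors Nr2c2 (11 ± 0.851 CPM per kb) and Nr2f1 (10.2 ± 3.29), the mineralocorticoid receptor Nr3c2 (10.1 ± 1.77), the progesterone receptor Pgr (9.74 ± 2.27) and the orphan receptor Nr4a2 (9.13 ± 6.49). The means of Nr2f1, Nr3c2, Pgr and Nr4a2 lay within 1 SD of one another, whereas Nr2c2 had a smaller SD, and within it only Nr2f1. The estrogen receptors Esr1 and Esr2, by contrast, were near the bottom, with 0.282 ± 0.237 and 0.205 ± 0.156 CPM per kb.

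Members that are classically receptors of liver, gut, adrenal and bone were almost absent. The vitamin D receptor Vdr had between 1 and 19 counts per library, Nr5a2 (LRH-1) between 0 and 4, and Nr0b1 (DAX-1) and Hnf4a between 0 and 2 each. These 4 genes were not tested, and a difference between groups was not detectable at this depth.

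**Figure D1:**
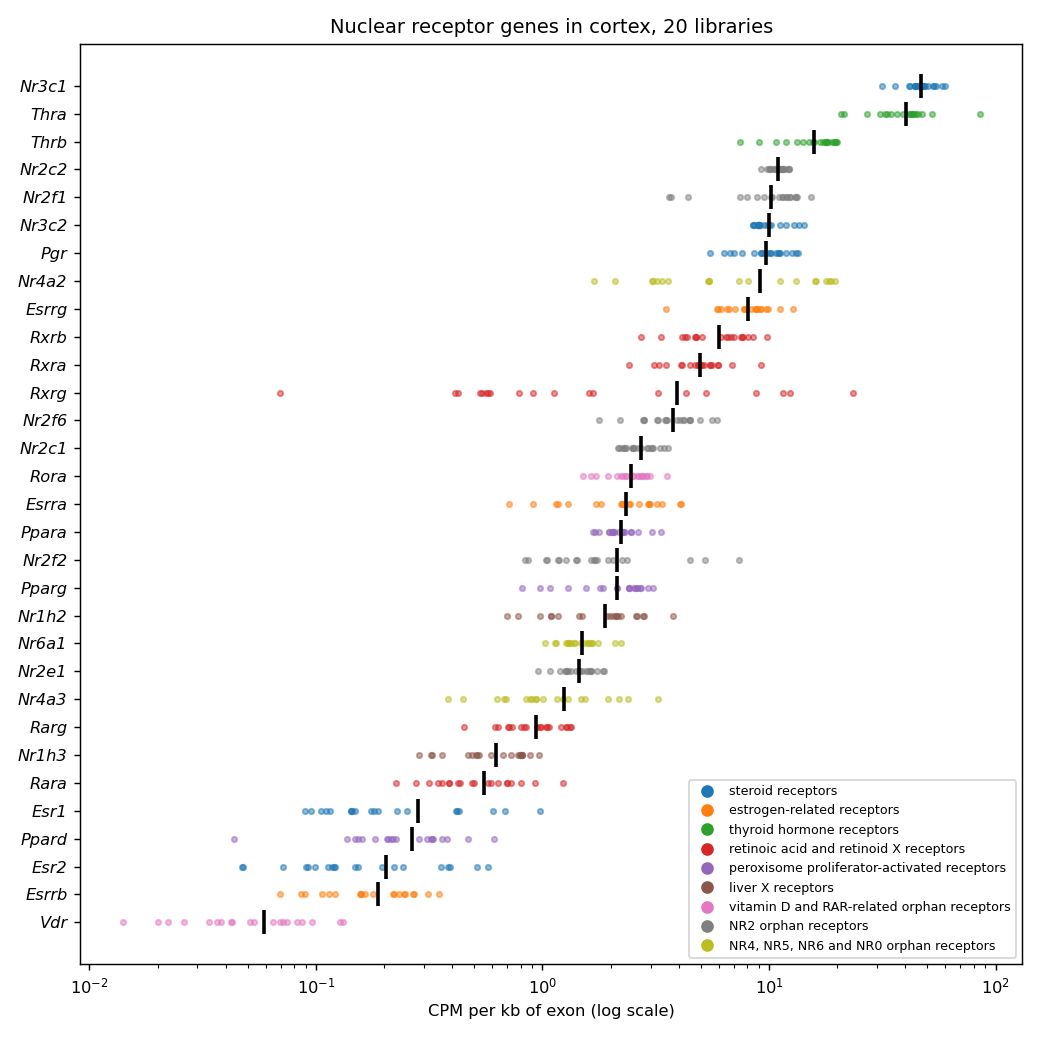
Level of each receptor gene in CPM per kb of exon on a log scale, with 1 point per library coloured by receptor family and a black bar at the mean of the 20 libraries. Only the 31 genes with a count in every library are drawn. The points of Nr2c2 lie close together, with a coefficient of variation (SD over mean) of 7.75%, while those of Rxrg spread over more than a log unit, with 151%.

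Receptors varied between mice to very different degrees. Nr2c2 (TR4), Nr3c1 and Nr2c1 (TR2) were the steadiest, with coefficients of variation of 7.75%, 14.6% and 15.9% in CPM. At the other end among the tested genes were Rxrg (151%), Esr1 (84%), Nr2f2 (78.1%), Esr2 (76%) and Nr4a2 (71.1%). The highest libraries of these 5 genes are named below.

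Some receptor genes carry, just upstream of a start site, the hexamer AGGTCA that nuclear receptors themselves bind. In RefSeq windows of the 250 bases before each start (GRCm38.p6), found for 32 of the 34 genes, the hexamer stood on either strand in 9 of 52 windows (17.3%), against 14% of 32851 windows of all genes. These 9 windows belonged to 8 genes: Nr0b1, Nr5a2, Nr6a1, Pparg, Rarg, Rxra, Rxrg and Thrb. The full cAMP response element TGACGTCA, bound by CREB, was in 1 of the 52 windows (1.92%), that of Nr2e1, against 1.55% of all windows. The full palindromic estrogen and glucocorticoid response elements were in 0 of the 52 windows, against 0.0639% and 0.00913% of all windows. The shares are a description of letters and not of binding. The windows of Thrb and Rxrg are shown because these genes had large diet differences below, in opposite directions and with no call, and that of Nr2e1 for its cAMP element, with the motif in capitals. The stretches of Thrb and Rxrg lie inside their genes as annotated (chr14:17660261-18038090 and chr1:167598384-167639623). The start meant for these genes is thus a later one than the first.
Thrb, + strand, chr14:17660741-17660816, hexamer from 184 to 179 bases before the start: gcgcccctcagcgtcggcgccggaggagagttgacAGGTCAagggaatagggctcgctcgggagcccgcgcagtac
Rxrg, + strand, chr1:167618142-167618217, hexamer from 88 to 83 bases before the start: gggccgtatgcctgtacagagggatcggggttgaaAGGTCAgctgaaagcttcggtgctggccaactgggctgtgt
Nr2e1, − strand, chr10:42583673-42583750, element from 125 to 118 bases before the start: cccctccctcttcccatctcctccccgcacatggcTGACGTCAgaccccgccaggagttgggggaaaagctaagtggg

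Between KD and CD females, the receptor genes of smallest p were Thrb and Pparg, both with lower means on the KD. None of the 30 tested genes passed the thresholds of FDR 0.1 and a 1.5-fold change in edgeR's quasi-likelihood test, against 0.0447% of all tested genes. At an unadjusted p under 0.05 there were 5 (16.7%), against 11.4% of all tested genes: Nr2f2 was higher (1 member, 3.33%, against 5.86% of all genes), and Thrb, Pparg, Pgr and Nr2f1 were lower (4, 13.3%, against 5.5%). The median log2 fold change of the 30 was 0.07, against 0.01 over all tested genes. The edgeR likelihood ratio test and the Wald test of DESeq2 each called 2 members in females, Thrb and Pparg (6.67%), against 1.4% and 1.62% of all tested genes. Leaving out a single mouse also moved the calls over all genes, to 6.66% without CD female E249, 5.68% without KD female E227 and 0.245% without KD male E59, and calls of members in those fits, given below, stand against these shares.

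In males no member passed FDR 0.1 and 1.5-fold by edgeR's quasi-likelihood test, its likelihood ratio test or DESeq2, and no gene at all passed by any of these tests (0% by each). At an unadjusted p under 0.05 there were 4 members (13.3%), against 3.56% of all tested genes, and all were higher on the KD: Esr1, Esr2, Nr2f2 and Nr4a2. Of all genes, 2.37% were higher and 1.19% lower. Each of the 4 had KD males E64 and E254 among its 4 highest males. These 2 mice also had the lowest summed level of 8 oligodendrocyte markers of all libraries, 1328 and 1451 CPM, against 2261 to 4041 CPM in the other males, and its part in these values was not tested. The median over the 30 members was -0.0047 on the log2 scale, against -0.0030 over all genes. No member had KD and CD libraries that did not overlap, in females (2.1% of all tested genes) or in males (0.217%).

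With both sexes averaged, 8 members (26.7%) had an unadjusted p under 0.05, against 13.9% of all tested genes, and 0 passed FDR 0.1 and 1.5-fold, against 0.268%. Esr2, Nr2f2 and Rxrg were higher on the KD (7.41% of all genes), and Nr2c2, Nr3c1, Pgr, Pparg and Thrb were lower (6.44% of all genes). By the likelihood ratio test and by DESeq2, Nr2f2 and Pparg were called (6.67%), against 2.36% and 2.24% of all tested genes. Without E249, 5.04% of all tested genes were called for this average, and without E227 4.19%. This average rests on the same libraries as the effects in each sex and adds no mice to them. The interaction of diet and sex had an unadjusted p under 0.05 for 1 member (3.33%), Thrb, with a negative value, against 2.14% of all tested genes (1.05% negative and 1.09% positive). For the interaction none passed FDR 0.1 and 1.5-fold by edgeR's 2 tests or DESeq2, against 0% of all tested genes by the quasi-likelihood test and 0.00639% by each of the other two.

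**Figure D2:**
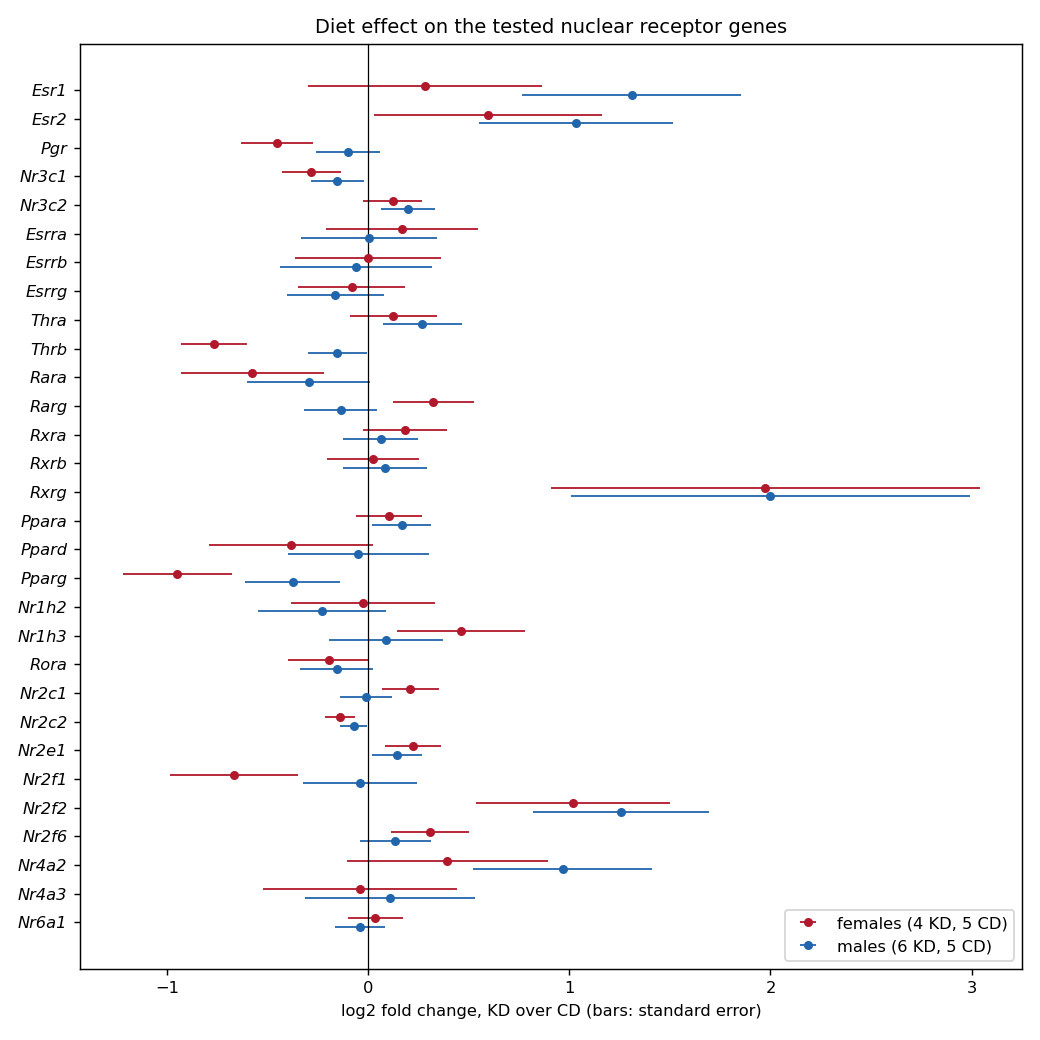
Log2 fold change of KD over CD with its standard error for the 30 tested receptor genes, in females (red, 4 KD and 5 CD) and males (blue, 6 KD and 5 CD), from 1 edgeR fit. Thrb and Pparg lie left of 0 in females, Nr2f2 lies near 1 in both sexes, and Rxrg lies near 2 in both with the widest bars.

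Of the 2 thyroid hormone receptors, Thrb was the member with the smallest p between the diets in females, and Thra had no unadjusted p under 0.05 between the diets. Thrb (chr14:17660261-18038090) encodes TRβ, the isoform best known for feedback in the pituitary, the retina and the liver, and it is also made by cortical neurons. Its level was 145, 117, 141, 87.7 and 146 CPM in CD females E62, E67, E228, E249 and E265, the order used for this group below. It was 55.2, 66.8, 79.6 and 111 CPM in KD females E61, E68, E207 and E227, again the order used below. Only E227 among the KD females reached the range of the CD females, whose lowest was E249. The log2 fold change was -0.77 ± 0.17 (SE; edgeR adjusted p = 0.139). An exact 2-sided permutation test of log2 CPM in females gave an unadjusted p = 0.0318, where 0.0159 is the smallest that 126 splits allow. The exact test, here and below, was run only on genes already picked by edgeR in the same mice. It also left out the library series, so it is not separate support.

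In males Thrb was 134, 116, 133, 132 and 143 CPM in CD males E51, E58, E66, E251 and E264, the order used for them below, and 98.3 in E59 to 147 in E256, with a median of 126, in KD males. The groups overlapped, with a log2 fold change of -0.15 ± 0.15 (edgeR adjusted p = 0.9998). The interaction, the effect in females minus that in males, was -0.61 ± 0.22 (edgeR adjusted p = 0.9999), which does not pass the threshold.

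The 5 libraries with the lowest Thrb, KD females E61, E68 and E207, CD female E249 and KD male E59, were the 5 with the highest striatal score. In the same fit 16 of the 20 striatal markers were higher in KD than CD females at an unadjusted p under 0.05 and 0 were lower, while 7 of 12 markers of cortical excitatory neurons were lower and 0 were higher. In bulk tissue, fewer cells of a type and less RNA per cell cannot be told apart. With the striatal score as a covariate, the effect on Thrb in females was -0.42 (edgeR adjusted p = 0.921, unadjusted p under 0.05). Without E249 it was -0.89 (adjusted p = 0.00553), without E227 -0.95 (adjusted p = 0.00385) and without E59 -0.77 (adjusted p = 0.0970), and in these 3 fits Thrb passed both thresholds. The value was -0.65 without E61 (edgeR adjusted p = 0.708), -0.75 without E68 (edgeR adjusted p = 0.313) and -0.75 without E207 (edgeR adjusted p = 0.655). It was -1.14 within library series 1 and -0.46 within series 2.

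Thra (chr11:98740638-98769006), whose product TRα carries most T3 signalling in the brain, was 193, 199, 170.3, 99.1 and 95.9 CPM in CD females and 205, 126, 150.2 and 202 CPM in KD females. Males had 241, 197, 154, 159.8 and 180.0 CPM on the CD and 142 in E256 to 393 in E64, with a median of 203, on the KD. The diet groups overlapped in both sexes, with log2 fold changes of 0.13 ± 0.21 in females and 0.27 ± 0.19 in males. KD male E64 stood well above every other library. Thra shares 263 exon bases with Nr1d1 on the other strand, and which strand was counted is not given in the sources used here, so its counts are uncertain.

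**Figure D3:**
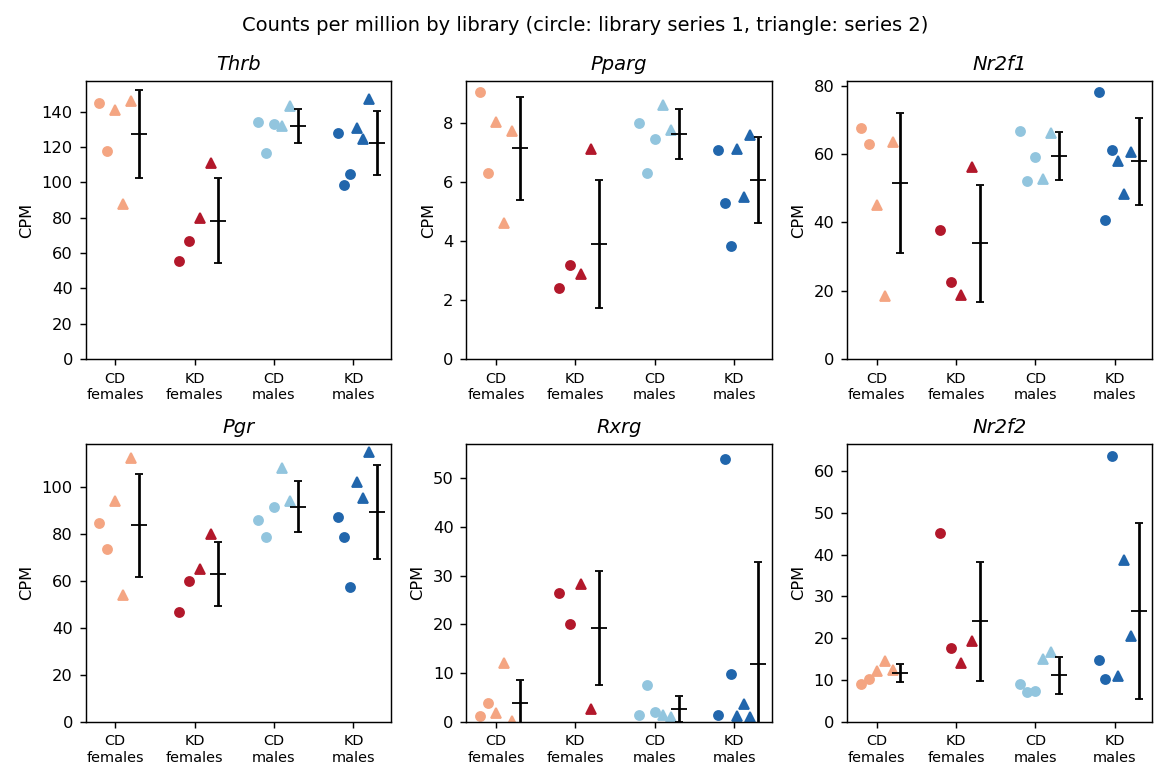
CPM of Thrb, Pparg, Nr2f1, Pgr, Rxrg and Nr2f2 in each library by group, circles for library series 1 and triangles for series 2, with the mean and SD of the group in black. In KD females 3 of 4 points lie low for Thrb and Pparg, with E227 higher, and the 4 KD libraries of highest Rxrg are 3 KD females and KD male E59.

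Among the PPARs, Pparg had an unadjusted p under 0.05 in females, with lower values on the KD, and Ppara and Ppard had none under 0.05 between the diets. Pparg (chr6:115360951-115490399) is the master regulator of fat cell formation and is also present at low levels in neurons. CD females had 9.04, 6.28, 8.02, 4.59 and 7.70 CPM and KD females 2.41, 3.19, 2.87 and 7.12 CPM. Here 3 KD females were below every CD female and E227 was inside the CD range. The log2 fold change was -0.95 ± 0.27 (edgeR adjusted p = 0.206), with an exact permutation p of 0.0476.

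In males Pparg was 7.98, 6.29, 7.46, 8.60 and 7.76 CPM on the CD and 3.82 in E64 to 7.58 in E256, with a median of 6.28, on the KD, with overlapping groups and a log2 fold change of -0.38 ± 0.24 (edgeR adjusted p = 0.9998). The direction was that of the females, and the interaction was -0.57 ± 0.36 (edgeR adjusted p = 0.9999). Averaged over the sexes it was -0.66 ± 0.18 (adjusted p = 0.128), and it passed the thresholds without E249 (-0.74, adjusted p = 0.0157) or without E227 (-0.86, adjusted p = 0.00620). With the striatal score as a covariate the effect in females was -0.51 (edgeR adjusted p = 0.921, unadjusted p over 0.05). It was -0.79 without E61 (edgeR adjusted p = 0.708), -0.92 without E68 (edgeR adjusted p = 0.337) and -0.81 without E207 (edgeR adjusted p = 0.688). Without E227 it was -1.36 (adjusted p = 0.00488) and without E249 -1.09 (adjusted p = 0.0238), both past the thresholds. Series 1 gave -1.49 and series 2 -0.51.

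Ppara, which drives fatty acid oxidation and ketone synthesis in the fasting liver, had 8.66, 7.90, 7.74, 11.6 and 8.66 CPM in CD females and 8.39, 12.8, 9.42 and 9.39 CPM in KD females. In males it was 6.85, 7.83, 7.54, 6.53 and 7.76 CPM on the CD and 6.44 in E213 to 10.1 in E64, with a median of 8.26, on the KD. Diet groups overlapped in each sex, and the log2 fold changes were 0.10 ± 0.16 in females and 0.17 ± 0.15 in males. Females exceeded males by 0.27 ± 0.11 (edgeR adjusted p = 0.292). Ppard, the most widely expressed PPAR, averaged 1.79 ± 1.06 CPM (SD) in females on the CD and 1.44 ± 0.247 CPM on the KD, and 2.37 ± 1.29 and 2.20 ± 0.916 CPM in males.

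Among the retinoid receptors Rxrg varied most between mice. RXRs are the common partners of thyroid, retinoic acid, PPAR and liver X receptors, and Rxrg is the RXR gene with a restricted pattern in the brain, high in the striatum. Rxrg (chr1:167598384-167639623) was 1.24, 3.85, 1.81, 12.1 and 0.159 CPM in CD females and 26.4, 20.1, 28.3 and 2.57 CPM in KD females. It was 1.34, 7.45, 2.10, 1.32 and 0.977 CPM in CD males and 0.947 in E256 to 54 in E59, with a median of 2.48, in KD males. High values came from 5 libraries, E59, E207, E61, E68 and E249, again those of highest striatal score, in the same order.

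Averaged over both sexes, Rxrg was higher on the KD by 1.99 ± 0.73 on the log2 scale (edgeR adjusted p = 0.218). In neither sex was the unadjusted p under 0.05, with 1.98 ± 1.06 in females (edgeR adjusted p = 0.515) and 2.0 ± 0.99 in males (edgeR adjusted p = 0.9998). With the striatal score as a covariate the average was 0.24 (edgeR adjusted p = 0.861). Without E59 the effect in males was 0.46 (edgeR adjusted p = 0.9995). Without E249 the effect in females was 3.65 (adjusted p = 0.0492) and the average 2.81 (adjusted p = 0.0199), both past the thresholds. The average was 2.02 without E61 (edgeR adjusted p = 0.392), 2.06 without E68 (edgeR adjusted p = 0.244) and 1.36 without E207 (edgeR adjusted p = 0.587), and the unadjusted p was over 0.05 without E207. Without E207 the effect in females was 0.77 (edgeR adjusted p = 0.989), and without E59 the average was 1.29 (edgeR adjusted p = 0.360).

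**Figure D4:**
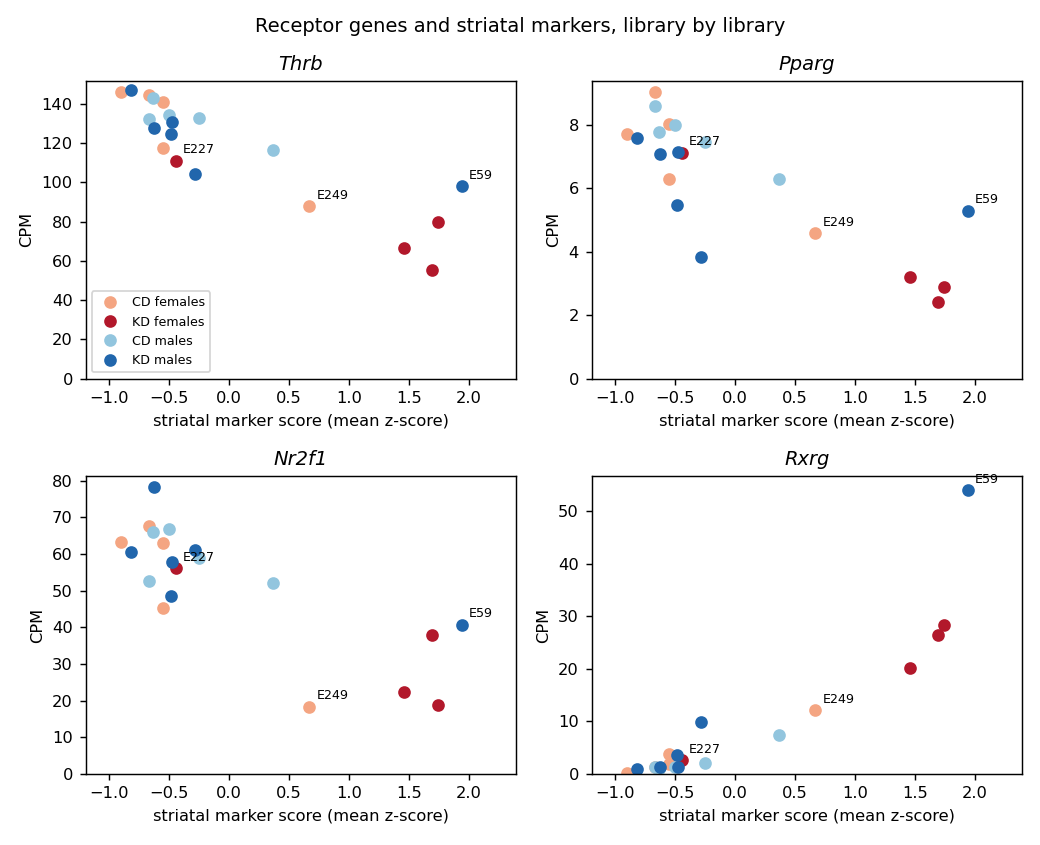
CPM of Thrb, Pparg, Nr2f1 and Rxrg against the striatal marker score (mean z-score of 20 markers) in each of the 20 libraries, coloured by group. The 5 libraries of highest score, 3 KD females, CD female E249 and KD male E59, have the lowest Thrb and Nr2f1 and the highest Rxrg.

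Rxrb, the RXR with the highest level per kb here, was 30.2, 27.8, 26.2, 10.8 and 13.3 CPM in CD females, 29.9, 16.9, 18.9 and 25.8 CPM in KD females and 32, 33.7, 20.1, 18.8 and 18.9 CPM in CD males. KD males had 16.4 in E256 to 38.8 in E64, with a median of 25.6. All groups overlapped, and the diet effects were 0.02 ± 0.23 in females and 0.08 ± 0.21 in males. Rxra, the RXR of most tissues, had 0.18 ± 0.21 and 0.06 ± 0.19, Rara -0.58 ± 0.35 and -0.30 ± 0.31, and Rarg 0.32 ± 0.20 and -0.14 ± 0.18 on the log2 scale in females and males, and none of these 3 reached an unadjusted p of 0.05 in any comparison.

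Steroid receptors differed by member. Pgr (chr9:8899833-8968611), the progesterone receptor, which estrogen induces in many tissues, was 84.7, 73.6, 94.1, 54.1 and 112 CPM in CD females and 46.8, 60.1, 65.1 and 80.1 CPM in KD females. The groups overlapped, and the lowest CD female was again E249. The log2 fold change was -0.45 ± 0.18 (edgeR adjusted p = 0.333), and the exact permutation p was 0.159. CD males had 86, 78.7, 91.6, 108 and 94.3 CPM and KD males 57.3 in E64 to 115 in E256, with a median of 91.3. In males the effect was -0.10 ± 0.16, with overlapping groups. In females it was -0.59 without E249 (adjusted p = 0.0249, past the thresholds) and -0.20 with the striatal score as a covariate (edgeR adjusted p = 0.921). It was -0.37 without E61 (edgeR adjusted p = 0.816), -0.51 without E68 (edgeR adjusted p = 0.375) and -0.42 without E207 (edgeR adjusted p = 0.741), and the unadjusted p was over 0.05 without E61 and without E207.

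Nr3c1, the glucocorticoid receptor and the highest member, was 387, 348, 367, 338 and 461 CPM in CD females and 276, 323, 319 and 372 CPM in KD females. It was 339.7, 376, 447, 408 and 338 CPM in CD males and 243 in E64 to 419 in E213, with a median of 355, in KD males. The groups overlapped, and the average effect of the KD was -0.22 ± 0.10 (edgeR adjusted p = 0.328). The mineralocorticoid receptor Nr3c2, which binds corticosterone with higher affinity, averaged 64.3 ± 13.4 CPM in females on the CD and 72.7 ± 10.8 CPM on the KD, and 57.6 ± 3.71 and 66.9 ± 12.9 CPM in males, and no comparison reached an unadjusted p of 0.05.

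The estrogen receptors were few in counts and uneven between mice. Esr1 (chr10:4611593-5005614), encoding ERα, was 1.30, 1.44, 1.57, 1.51 and 1.95 CPM in CD males and 1.22 in E213 to 9.29 in E64, with a median of 2.52, in KD males. E64 and E254 stood above the rest of the males. The log2 fold change in males was 1.31 ± 0.54 (edgeR adjusted p = 0.9998), with an exact permutation p of 0.0390, where 0.00433 is the smallest that 462 splits allow. Without E64 it was 0.79 (edgeR adjusted p = 1).

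In females Esr1 was 1.95, 3.44, 1.98, 13.3 and 2.38 CPM on the CD and 8.27, 5.86, 5.74 and 3.11 CPM on the KD. CD female E249 had the highest level of all 20 libraries, and the log2 fold change was 0.28 ± 0.58 with it and 1.16 without it (edgeR adjusted p = 0.153). The average over the sexes was 0.79 ± 0.40 with it and 1.23 without it (adjusted p = 0.0214, past the thresholds). E249 and the next highest females, E61, E68 and E207, are the females of high striatal score named above. The 7 markers of basal forebrain cholinergic neurons summed to 91.2 CPM in E249 and 112 to 153 CPM in those KD females. They summed to at most 3.28 CPM in the other females, and to 3.71 and 2.89 CPM in males E64 and E254. The part of these markers in Esr1, between the diets or the sexes, was not tested. Esr2, encoding ERβ, was 0.333, 0.405, 0.396, 0.819 and 0.159 CPM in CD females, 0.311, 0.517, 0.662 and 1.20 CPM in KD females and 0.303, 0.240, 0.161, 1.32 and 0.747 CPM in CD males. KD males had 0.381 in E59 to 1.93 in E254, with a median of 0.893. The groups overlapped, and the effect in males was 1.03 ± 0.48 (edgeR adjusted p = 0.9998, exact permutation p = 0.195), or 0.58 without E64 (edgeR adjusted p = 1).

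In the NR2 family, the COUP transcription factors Nr2f1 and Nr2f2 went in opposite directions in females. They pattern the developing forebrain, Nr2f1 the areas of the neocortex and Nr2f2 the caudal ganglionic eminence and the amygdala. Nr2f2 (chr7:70351944-70366735) was 9.04, 10.1, 12.1, 14.6 and 12.3 CPM in CD females and 45.2, 17.7, 14.1 and 19.3 CPM in KD females. Males had 8.93, 7.21, 7.46, 15.1 and 16.7 CPM on the CD and 10.2 in E59 to 63.6 in E64, with a median of 17.6, on the KD. The highest libraries were on the KD in both sexes, E61 among females and E64 and E254 among males, and E68 and E227 were also above every CD female. KD female E207 lay inside the range of the CD females.

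The log2 fold change of Nr2f2 was 1.02 ± 0.48 in females (edgeR adjusted p = 0.433, exact permutation p = 0.0318) and 1.26 ± 0.44 in males (edgeR adjusted p = 0.9998, exact permutation p = 0.0909). The average was 1.14 ± 0.33 (edgeR adjusted p = 0.135), and it passed the thresholds once E249 (1.18, adjusted p = 0.0461) or E227 (1.21, adjusted p = 0.0589) was left out. Without E61 the effect in females was 0.51 (edgeR adjusted p = 0.979), and without E64 the effect in males was 0.71 (edgeR adjusted p = 1). Library E64 also had the highest summed level of 8 meningeal and fibroblast markers (447 CPM) and of 8 hippocampal markers (208 CPM), and E61 the highest of 11 hypothalamic markers (41.5 CPM), and their part in these values was not tested. Nr2f2 shares 643 exon bases with B130024G19Rik on the other strand.

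Nr2f1 (chr13:78188973-78199757) was 67.6, 62.9, 45.1, 18.4 and 63.4 CPM in CD females and 37.8, 22.4, 18.8 and 56.2 CPM in KD females. CD males had 66.8, 52, 59, 52.6 and 66.1 CPM and KD males 40.7 in E59 to 78.3 in E53, with a median of 59.2. E249 was the lowest of all libraries although on the CD, and E227 was the highest KD female. The effect in females was -0.67 ± 0.32 (edgeR adjusted p = 0.436, exact permutation p = 0.254), and in males -0.04 ± 0.28. Without E249 the effect in females was -0.88 (adjusted p = 0.0524) and without E227 -1.1 (adjusted p = 0.0517), both past the thresholds. It was -0.70 without E61 (edgeR adjusted p = 0.814), -0.50 without E68 (edgeR adjusted p = 0.579) and -0.48 without E207 (edgeR adjusted p = 0.872), with an unadjusted p over 0.05 in each. With the striatal score as a covariate its sign turned, to 0.12 (edgeR adjusted p = 0.941).

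No other NR2 receptor had an unadjusted p under 0.05 between the diets in either sex. Nr2c2, an orphan receptor of broad expression, was 165, 150.5, 168, 170.3 and 182 CPM in CD females and 137, 151, 162 and 172 CPM in KD females. It was 156, 159, 165, 183 and 176 CPM in CD males and 147 in E64 to 182 in E256, with a median of 165, in KD males. The ranges overlapped, and the average effect of -0.11 ± 0.05 (edgeR adjusted p = 0.338) was the smallest in size of the 8 at an unadjusted p under 0.05. Nr2c2 shares 4590 exon bases with Mrps25 on the other strand. Nr2c1, Nr2e1 (TLX, which maintains adult neural stem cells) and Nr2f6 had effects of 0.21 ± 0.14, 0.22 ± 0.14 and 0.31 ± 0.20 in females and -0.01 ± 0.13, 0.14 ± 0.12 and 0.13 ± 0.18 in males, none with an unadjusted p under 0.05. Nr2f6 shares 1622 exon bases with Ocel1 on the other strand.

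Estrogen-related receptors, which drive mitochondrial genes without binding estrogen, had no unadjusted p under 0.05 in any comparison. Esrrg, the highest of them, was 51.7, 41.3, 48, 60.5 and 57.2 CPM in CD females and 37.2, 69.2, 54.2 and 36.8 CPM in KD females. It was 48, 44.1, 61.7, 56.5 and 49.1 CPM in CD males and 21.8 in E64 to 79.6 in E213, with a median of 47.3, in KD males. The groups overlapped, and the effects were -0.08 ± 0.27 and -0.17 ± 0.24 in females and males. Esrra had 0.17 ± 0.38 and 0 ± 0.34, and Esrrb 0 ± 0.36 and -0.06 ± 0.38.

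The liver X receptors, which sense oxysterols, and Rora, which supports cerebellar and circadian programmes, also lay within the spread. Nr1h2 (LXRβ) was 9.33, 6.65, 7.12, 2.62 and 3.26 CPM in CD females and 7.11, 3.92, 4.86 and 7.48 CPM in KD females. In males it was 12.6, 9.38, 3.67, 5.02 and 6.44 CPM on the CD and 2.35 in E254 to 8.75 in E64, with a median of 7.02, on the KD. Its effects were -0.03 ± 0.36 and -0.23 ± 0.32, with overlapping groups, and those of Nr1h3 (LXRα) were 0.46 ± 0.32 and 0.09 ± 0.28. Rora was 39.1, 22.5, 34.7, 19.7 and 46.5 CPM in CD females, 29, 25.4, 29.7 and 32.8 CPM in KD females and 34.4, 30.5, 32.9, 36.3 and 37.5 CPM in CD males. KD males had 21.5 in E64 to 37.7 in E213, with a median of 33. Effects on Rora were -0.20 ± 0.20 and -0.16 ± 0.18, smaller than the spread between mice.

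Between females and males, averaged over both diets, most of the receptor genes at an unadjusted p under 0.05 had lower levels in females. An unadjusted p under 0.05 was found for 9 of the 30 (30%), against 13.6% of all tested genes. Of the 9, Esr1 and Ppara were higher in females (8.59% of all genes), and Nr2f1, Nr4a2, Nr6a1, Pgr, Pparg, Thra and Thrb were lower (4.96% of all genes). None passed FDR 0.1 and 1.5-fold by edgeR's quasi-likelihood test, against 0.134% of all tested genes, and 1, Nr4a2, passed by its likelihood ratio test and by DESeq2 (3.33%), against 1.83% and 1.35% of all tested genes. The median of the 30 was -0.12 on the log2 scale, against 0.003 over all genes. CD female E228, with its trace of Ddx3y, did not set the count of 9: without it the same 9 genes had an unadjusted p under 0.05. The libraries of high striatal score were females E61, E68, E207 and E249 and male E59. With that score as a covariate 3 members had an unadjusted p under 0.05. Of all 15660 tested genes 648 did, against 2122 without the score.

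Nr4a2 (Nurr1; chr2:57106830-57124003) is an orphan receptor needed for midbrain dopamine neurons, and in the cortex it marks the claustrum and the deepest layer. It was 22, 13.7, 12.9, 12.4 and 22.2 CPM in CD females and 6.87, 12.5, 21.9 and 65 CPM in KD females. It was 32.7, 8.45, 14.5, 74.4 and 45.5 CPM in CD males and 29.8 in E59 to 79.1 in E254, with a median of 68.7, in KD males. Of the 9 females only E227 exceeded 22.2 CPM, whereas 9 of the 11 males did. Females had 21.0 ± 17.3 CPM (SD, n = 9) and males 50.2 ± 25.7 CPM (n = 11), with a log2 difference of -1.25 ± 0.34 (edgeR adjusted p = 0.159).

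The difference was -1.34 within library series 1 (edgeR adjusted p = 0.249) and -1.27 within series 2 (edgeR adjusted p = 1). Leaving out E227 gave -1.6 (adjusted p = 0.00989) and leaving out E59 -1.3 (adjusted p = 0.0944), both past the thresholds, which 5.1% and 1.32% of all tested genes passed in these fits. Of 6 other markers of the claustrum and layer 6b, Cplx3 (-0.91, edgeR adjusted p = 0.173) and Ctgf (-0.49, edgeR adjusted p = 0.140) were also lower in females at an unadjusted p under 0.05 and 0 were higher. By direction alone 4 of the 6 were lower in females and 2 higher, with a list median of -0.13. Gnb4 averaged 26.2 and 53.9 CPM in CD and KD females, and 21.5 and 40.7 CPM in CD and KD males. The summed level of the 6 was 55.7 to 99.9 CPM in CD females, 88.6 to 121 CPM in KD females, 80.1 to 91.2 CPM in CD males and 95.6 to 139.8 CPM in KD males, and none of the 6 was at 0 in any library. The part of this list in the Nr4a2 difference was not tested.

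**Figure D5:**
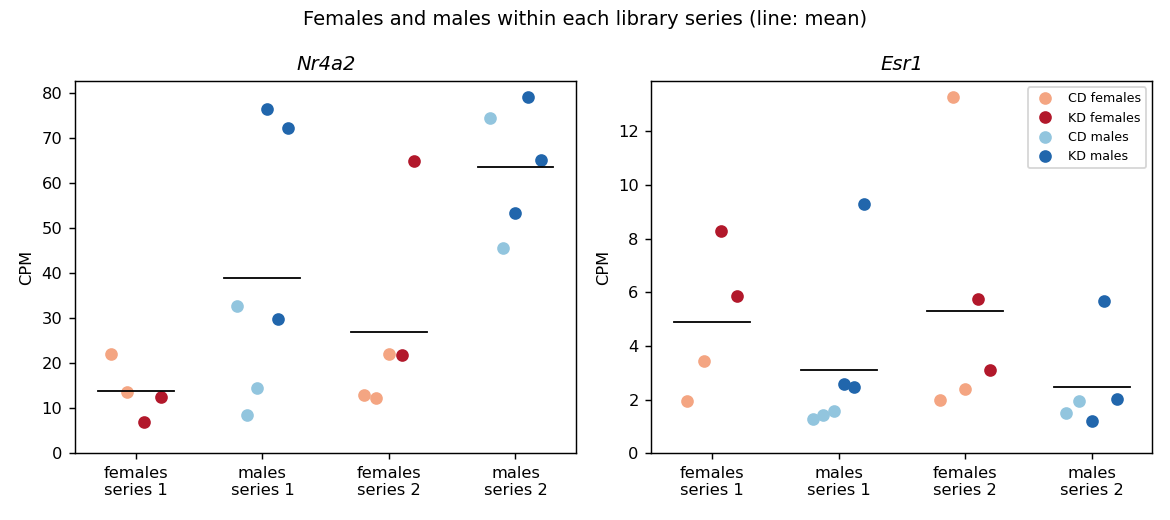
CPM of Nr4a2 and Esr1 in females and males within each library series, 1 point per library coloured by group, with a line at the mean. Nr4a2 averaged 13.8 CPM in females and 39.0 CPM in males in series 1, and 26.9 and 63.5 CPM in series 2, and Esr1 is led by CD female E249.

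Within males, Nr4a2 was also higher on the KD, by 0.97 ± 0.45 (edgeR adjusted p = 0.9998, exact permutation p = 0.0779). The value was 1.65 in series 1 and 0.15 in series 2, and without CD male E58 it was 0.72 (edgeR adjusted p = 0.9999). Of the 6 claustrum and layer 6b markers 5 were higher on the KD in males and 1 lower. Gnb4 alone had an unadjusted p under 0.05 there (16.7%, against 2.37% of all tested genes higher). Averaged over the sexes Gnb4 was called (0.96, edgeR adjusted p = 0.0583), as were 0.268% of all tested genes. The part of this list in the diet difference of Nr4a2 was not tested. Nr4a3 (NOR1), a relative of Nr4a2 and an immediate early gene, was 0.11 ± 0.42 in males and -0.04 ± 0.48 in females between the diets, and females against males it was -0.68 ± 0.32 (edgeR adjusted p = 0.369).

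Nr6a1 (GCNF), known from germ cells and the embryo, was 14.1, 12.4, 14.5, 17.9 and 13.7 CPM in CD females and 14, 12.3, 16.6 and 18 CPM in KD females. CD males had 17.3, 14.2, 15.1, 22.7 and 16.1 CPM and KD males 11.1 in E59 to 24 in E213, with a median of 17.4. The sexes overlapped, and the difference was -0.25 ± 0.09 (edgeR adjusted p = 0.263). The remaining members of this group had differences, females against males, of 1.04 ± 0.39 for Esr1 (edgeR adjusted p = 0.270), -0.39 ± 0.11 for Thrb (adjusted p = 0.174), -0.36 ± 0.12 for Pgr (adjusted p = 0.228), -0.49 ± 0.21 for Nr2f1 (adjusted p = 0.319), -0.41 ± 0.18 for Pparg (adjusted p = 0.325) and -0.32 ± 0.15 for Thra (adjusted p = 0.352). For Thrb, Pgr, Nr2f1 and Pparg the KD females held the lowest group mean. Without E227, Esr1, Nr2f1 and Pparg passed the thresholds beside Nr4a2 (4 members, against 5.1% of all tested genes in the same fit), with Esr1 at 1.13 (adjusted p = 0.0975), Nr2f1 at -0.70 (adjusted p = 0.0392) and Pparg at -0.60 (adjusted p = 0.0293). Without E249, Esr1 was at 0.60 (edgeR adjusted p = 0.543).

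None of the cofactors, enzymes or targets of the receptors was called, that is, no gene of the lists that follow passed FDR 0.1 and 1.5-fold by edgeR's quasi-likelihood test between the diets in either sex. Of 11 coactivators 1 (9.09%) had an unadjusted p under 0.05 in females, and 0 did in males, against 11.4% and 3.56% of all tested genes. Of 9 corepressors, Ncor1 (-0.17, adjusted p = 0.380) and Nrip1 (-0.33, adjusted p = 0.255) were lower in KD females at that level (22.2%, against 5.5% of all genes lower). The list median was -0.17, and 0 differed in males. The 7 chaperones and cochaperones of steroid receptors gave 0 in either sex. Among the tested receptors outside the 34, Rarb (1.61, adjusted p = 0.350) was higher in KD females at that level. Rarb, a retinoic acid receptor high in the striatum, averaged 20.4 ± 17.3 CPM in CD females and 68.3 ± 38.3 CPM in KD females.

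Enzymes and carriers supply or remove the ligands. Of 19 tested, 5 (26.3%) had an unadjusted p under 0.05 in females, against 11.4% of all tested genes. Among them Cyp26b1, which degrades retinoic acid, was higher (1.10, adjusted p = 0.417). Rbp4, a retinol carrier (-0.66, adjusted p = 0.240), and Hsd11b1, which regenerates corticosterone (-1.05, adjusted p = 0.255), were lower. In the same comparison 16 of 20 striatal markers were higher and 7 of 12 markers of cortical excitatory neurons lower at that level. The part of these markers in the enzyme and carrier values was not tested. In males 4 (21.05%) had an unadjusted p under 0.05, all higher, where 2.37% of all tested genes were higher. Among these 4 were Dio3, which inactivates T3 (2.60, adjusted p = 0.9998), and again Cyp26b1 (1.04, adjusted p = 0.9998). Dio3 was low, at 0.344 ± 0.191 CPM in CD males and 2.21 ± 3.63 CPM in KD males, so the KD males spread more widely than their mean.

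Known target genes were counted for each receptor class in females. Of 19 PPAR targets 5 were higher at an unadjusted p under 0.05, a level that 5.86% of all tested genes reached upwards, and 0 lower, with a list median of 0.28 against 0.01 over all genes, among them Hadha, a subunit of the trifunctional protein of fatty acid oxidation (0.24, adjusted p = 0.246). In the same comparison 5 of 10 microglial markers, 1 of 8 astrocyte markers and 1 of 8 oligodendrocyte markers were higher at that level and 0 lower. The summed level of the microglial markers was 299 to 416 CPM in CD females, 393 to 570.1 CPM in KD females, 315 to 429.6 CPM in CD males and 311 to 455 CPM in KD males, with none at 0 in any library, and their part in this count was not tested. Of 7 retinoic acid targets 4 were higher and 0 lower, with a median of 0.43, and 2 of the 4, Rarb and Cyp26b1, are named above. The striatal markers, 16 of 20, were higher in the same comparison, and their part in this count was not tested. Of 14 glucocorticoid receptor targets 1 was higher and 1 lower, the latter Zbtb16 (-1.52, adjusted p = 0.230), of 7 thyroid hormone targets 1 was higher, of 10 liver X receptor targets 2 were higher, among them Srebf1 (0.49, adjusted p = 0.421), and of 6 estrogen receptor targets 1 was higher and 1 lower. In males the counts were 1 PPAR target higher (Cd36, 1.53, adjusted p = 0.9998), 2 retinoic acid targets higher, 0 glucocorticoid targets, 1 thyroid hormone target higher (Dio3), 1 liver X receptor target lower and 2 estrogen receptor targets higher. At an unadjusted p under 0.05, 5.5% of all tested genes were lower in females. In males 2.37% were higher and 1.19% lower. The target lists overlap with one another and with the enzyme list, so the counts are not separate evidence.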

How the data were processed

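RNA from 10 mg of frozen cortex of 20 mice was sequenced as 50-bp read pairs from stranded total RNA libraries. STAR alignment to mm10 was done by the authors, who deposited counts of reads per gene for each mouse, not normalized. Aligner version, annotation and the strand counted are not given in the sources used here. The labels gave the groups and, through library numbers, the library series. Members and gene lists were chosen with earlier results of these data known. Each library is 1 mouse, so p-values measure the spread between mice.

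Genes passing filterByExpr were tested in R 4.3.3 with edgeR 4.0.16 (upper-quartile scaling, 4 groups and library series, robust quasi-likelihood F test, Benjamini-Hochberg adjustment over 15660 genes, thresholds FDR 0.1 and 1.5-fold, as in the study). All 5 contrasts came from 1 fit. Unwanted variation by RUVg, which the study used with settings not given, was an alternative. CPM used library totals, and exact permutation tests used log2 CPM with a prior count of 2, for 9 gene and sex pairs at an unadjusted p under 0.05. These pairs were picked on the same mice, and the exact p-values are unadjusted and without the library series. Members given library by library were those with an unadjusted p under 0.05 in any contrast or the highest level per kb of their class, and at most 3 genes of each other list. Coordinates are from the GENCODE annotation of GRCm38, the assembly of mm10. Alternatives were TMM, DESeq2 size factors, no filter, 10 counts in every library, no series term, a striatal score covariate, RUVg with 1 or 2 factors, each sex or series alone, DESeq2 1.42.0 (Wald test), edgeR's likelihood ratio test, and leaving out mice. On counts simulated for females, 132 of 200 genes changed 2-fold (66%) were recovered with 12 false calls. The simulation drew genes independently, without shifts shared between genes such as that of the striatal markers. Recovery and false calls in the real data can therefore differ. Values of some genes of the other lists are not reported here.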

Additional observations from a re-analysis of the deposited data

Results flagged for a closer look

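In groups of 4 to 6 mice, the highest or lowest library stood apart by Dixon's gap ratio (gap to the nearest library over the range of the group) in 7 of 72 groups of the 18 members given library by library. Chance gives about 3.6. Esr1 in CD female E249 had a ratio of 0.868 and Ppara in the same mouse 0.764, both high. Nr2f2 in KD female E61 had 0.833, and Pparg in KD female E227 had 0.834, both high. Rxrg was high in CD male E58 (0.827) and in KD male E59 (0.831). Thra was high in KD male E64 (0.692). CD male E58 had 7.45 CPM of Rxrg and the highest striatal score of its group, 0.37. KD male E59 had 54.0 CPM of Rxrg and 2399 CPM of choroid plexus markers in all, against at most 64.5 CPM in the other libraries. The part of these markers in the values was not tested.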

How the results depend on the processing

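No paired analysis was possible because the replicate numbers are animal numbers, and no number is shared between groups. The log2 fold changes of 27 gene and contrast pairs kept their direction in 540 of 540 fits without 1 mouse and in 356 of 357 other fits. The exception was Nr2f1 in females, at 0.12 with the striatal score as a covariate.

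Members past FDR 0.1 and 1.5-fold in females numbered 2 with 2 RUVg factors, with the likelihood ratio test and with DESeq2, and 3 in library series 1 alone. These fits called 234, 220 and 253 of all 15660 tested genes, and 865 of 15966. For the average over the sexes, members past both thresholds numbered 1 with 2 RUVg factors, 4 in series 1, and 2 with each of those tests. Calls over all genes were then 314, 886, 370 (likelihood ratio test) and 351 (DESeq2). For females against males 1 member passed with each test, against 286 and 212 of all genes. Members at an unadjusted p under 0.05 in females numbered 2 with the striatal score, 8 with 2 RUVg factors and 1 in series 2. At that level were 739 and 2724 of all 15660 tested genes, and 418 of 15458. In males, members at that level numbered 2 without the series term and 0 in series 2, against 482 and 48 of all genes. For the interaction the members were 0 with the striatal score and 4 in series 1, against 240 and 1264 of all genes. For the average they were 4 without the series term and 1 in series 2, against 1769 and 200 of all genes. For females against males the members were 3 with the striatal score, in series 1 and in series 2, against 648, 1836 and 544 of all genes. Without E249, E228, E227 and E59 together, 5 members passed both thresholds in females and 4 for the interaction. For the average 6 passed, and for females against males 2. Of all 15895 genes tested in this fit, 1827, 869, 1145 and 757 passed in that order. An unadjusted p under 0.05 was found for 10 members in females and 6 for the interaction, against 3777 and 2365 of all genes. These 4 mice were chosen on marker values known earlier, so those counts cannot be read as support.

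Leaving out 1 mouse in turn, members past the thresholds ranged from 0 to 5 in females, 0 to 0 in males, 0 to 0 for the interaction, 0 to 4 for the average and 0 to 4 for females against males, while calls over all genes ranged from 0 to 1046, 0 to 0, 0 to 41, 2 to 791 and 8 to 813 in that order. Members at an unadjusted p under 0.05 ranged from 2 to 10, 0 to 5, 1 to 4, 4 to 13 and 5 to 11 in that order. Over all genes the numbers at that level were 1000 to 2939, 234 to 795, 188 to 1103, 1518 to 3191 and 1299 to 3808. The causes of these changes were not tested. Over all genes, the call count in females was 7, against 253 with DESeq2, 220 with the likelihood ratio test, 865 in series 1 and 1827 without the 4 mice. Among the tested members depth limits Esr2 (2 to 48 counts per library) and Esrrb (7 to 47) most. Ppard had 4 to 106 counts. Rxrg had 2 to 1418, so only its low libraries were near the floor.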
